A study of Arabidopsis thaliana with 6 samples.

Results

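The wild-type transcriptome of developing Arabidopsis thaliana seeds was described from the 2 wild-type (WT) libraries of a series of 6, called WT 1 and WT 2 here. The seeds came from Columbia-0 plants with no mutation or treatment named in the labels, were taken from siliques of tagged flowers 13 days after flowering, and were pooled. The extraction text gives 12 to 13 days. Growth was at 22 °C in the light and 17 °C in the dark, with a light period of 16 hours. The design text calls the 2 libraries biological replicates, and the labels do not say what separates the pools. Total RNA of whole seeds was used, so a transcript can come from embryo, endosperm or seed coat, and in such bulk samples fewer cells of a type and less RNA per cell cannot be told apart.

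The deposited table has 34001 entries, each a merged locus, and the members described are the 33572 nuclear entries, which stand for 33038 genes. They are the entries of genes on the 5 nuclear chromosomes, with 6 assembled entries whose symbol was not matched to a gene. Left out were 131 plastid, 141 mitochondrial and 155 assembled entries with no TAIR gene, and the 2 entries of AT3G41768, a nuclear 18S rRNA gene. Other rRNA entries, AT2G01010 among them, stayed in the nuclear total. AT3G41768 held 40.8% of all reads in WT 1 and 60.7% in WT 2. Nuclear reads numbered 2854359 of 5187867 in WT 1 and 1223757 of 3418773 in WT 2. A count of 0 allows a share of up to 0.000105% in WT 1 and 0.000245% in WT 2 (3 reads of the total), and the two-sided exact 95% interval of 0 reads ends higher, at 0.000129% and 0.000301%. Plastid reads came to 2.50% of the number of nuclear reads in WT 1 and 3.40% in WT 2, and mitochondrial reads to 4.99% and 6.30%. Below, a share is the percentage of a library's nuclear reads, and a normalised count is the deposited value, a read count divided by the size factor of its library.

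At this stage an Arabidopsis embryo has its full form and fills with reserves. Storage proteins (12S cruciferins and 2S albumins) are made on the endoplasmic reticulum and packed into protein storage vacuoles, while triacylglycerol, the seed oil, is packed into oil bodies coated by oleosins. Transcription factors of the B3 family (ABI3, FUS3, LEC2), which bind the RY element, act with bZIP factors that bind ACGT-containing elements such as the G-box at the promoters of many reserve genes.

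Nuclear reads were concentrated on few entries. The 10 highest entries held 13.3% of nuclear reads in WT 1 and 13.0% in WT 2 (13.1% ± 0.208, SD, n = 2). The 100 highest held 29.4% and 28.8% (29.1% ± 0.381, SD, n = 2), and the 1000 highest held 54.1% and 53.8%. In WT 1 753 entries were enough for 50% of nuclear reads and 7133 for 90%, and in WT 2 it took 772 and 7191. Both libraries had the same 10 entries in their top 10, shared 27 of their top 30, 94 of their top 100 and 919 of their top 1000. Only 22 entries, 0.0655% of all, had a mean normalised count over 10000, and they held 19.2% of nuclear reads in WT 1 and 18.5% in WT 2. The broad middle, 6086 entries from 100 to 1000, held 46.6% and 46.8%.

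**Figure D1:**
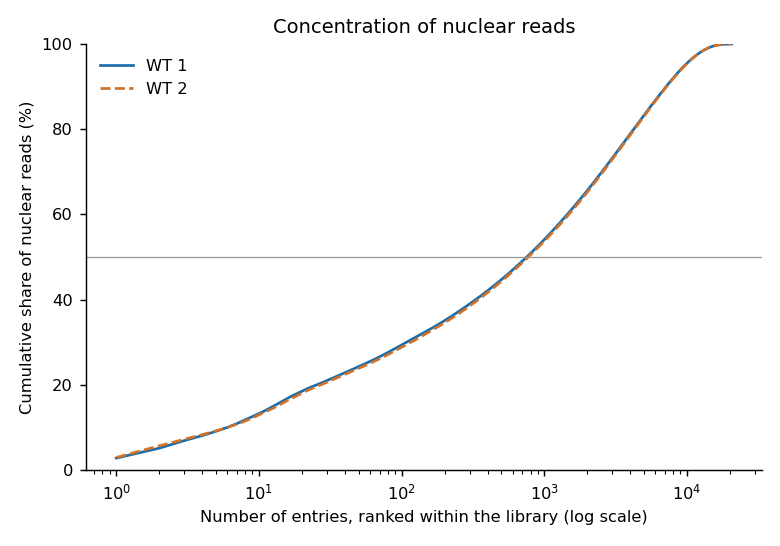
Cumulative share of nuclear reads (y axis, %) against the number of entries ranked within each library (x axis, log scale), with WT 1 as a solid and WT 2 as a dashed line and a grey line at 50%. Both curves run close together and cross 50% at 753 entries in WT 1 and 772 in WT 2.

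The highest share belonged to OLEO1 (AT4G25140, TAIR10.1 chr4:12900430-12901577, + strand), the main oleosin of the seed oil body. It held 2.81% of nuclear reads in WT 1 (exact 95% interval 2.795 to 2.833) and 2.74% in WT 2 (2.71 to 2.77). Next came ATEPR1 (AT2G27380, chr2:11713411-11715774, + strand), an extensin-like cell wall protein known from the endosperm, with 2.34% in WT 1 and 2.96% in WT 2. These exchanged places between libraries: OLEO1 ranked 1 in WT 1 and 2 in WT 2, and ATEPR1 the reverse. CRU2 (AT1G03880, chr1:985751-988146, + strand), a 12S cruciferin, was in place 3 in both, with 1.78% and 1.53%. OLEO2 held 1.17% in WT 1 and 1.10% in WT 2, and AT2G05580, a glycine-rich protein, 0.893% and 0.885%. Of the 10 highest entries 8 were on the lists of storage and oil body proteins, as were 13 of the 30 highest; ATEPR1 and AT2G05580 were the others of the 10.

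**Figure D2:**
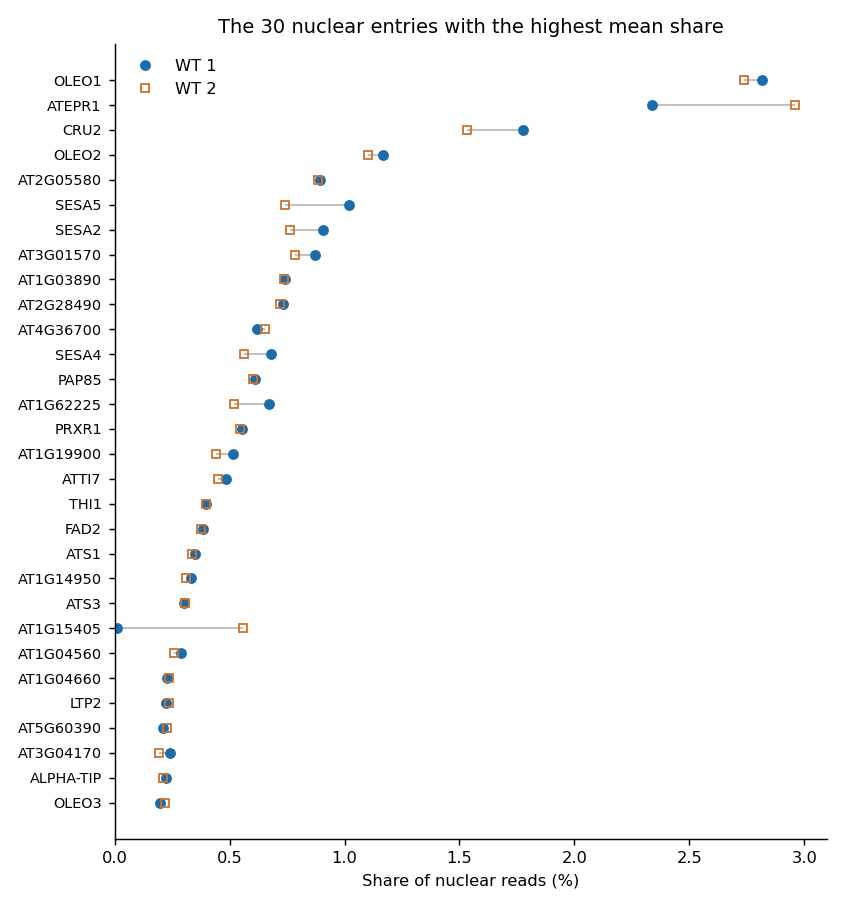
Share of nuclear reads (x axis, %) of the 30 nuclear entries with the highest mean share, in descending order, as filled circles for WT 1 and open squares for WT 2, joined by a grey line. Most pairs nearly touch, and AT1G15405 is the exception, at 0.0109% in WT 1 and 0.559% in WT 2.

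The 250 bases before the annotated gene start are shown for 3 of the 6 highest entries, to set windows with and without the elements named above side by side. They were read from the RefSeq TAIR10.1 genome and run 5′ to 3′ on the gene's own strand. Capitals mark each RY element (CATGCA, or TGCATG on the other strand) and each G-box (CACGTG).
OLEO1, chr4:12900180-12900429, + strand: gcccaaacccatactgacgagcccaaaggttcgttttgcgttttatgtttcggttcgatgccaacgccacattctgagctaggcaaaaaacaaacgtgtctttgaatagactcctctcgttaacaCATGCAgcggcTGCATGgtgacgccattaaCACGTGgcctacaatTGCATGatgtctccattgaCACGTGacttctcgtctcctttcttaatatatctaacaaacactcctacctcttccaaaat
ATEPR1, chr2:11713161-11713410, + strand: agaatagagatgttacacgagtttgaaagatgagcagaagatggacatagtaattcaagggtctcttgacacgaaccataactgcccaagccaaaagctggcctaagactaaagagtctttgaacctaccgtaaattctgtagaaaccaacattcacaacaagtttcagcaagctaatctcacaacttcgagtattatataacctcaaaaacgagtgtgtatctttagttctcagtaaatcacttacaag
SESA5, chr5:22239188-22239437, - strand: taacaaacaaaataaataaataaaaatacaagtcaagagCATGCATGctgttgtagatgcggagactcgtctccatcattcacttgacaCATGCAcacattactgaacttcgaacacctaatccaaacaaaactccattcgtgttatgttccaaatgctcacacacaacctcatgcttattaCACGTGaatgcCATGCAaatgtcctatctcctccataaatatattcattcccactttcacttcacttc

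The OLEO1 window held 3 RY elements and 2 G-boxes and that of SESA5 4 RY elements, 2 of them overlapping, and 1 G-box. Neither element was found in the window of ATEPR1, or in that of the storage gene CRU2, which is not shown. An RY element on either strand was present in the windows of 7 of the 10 highest genes (70%), 16 of the 29 protein-coding genes among the 30 highest entries (55.2%), 33 of 99 among the 100 highest (33.3%) and 118 of 996 among the 1000 highest (11.8%). Among all 26514 protein-coding genes with a window the share was 8.49%, and among the 6813 with no read in either library 10.4%. For the G-box the shares were 40%, 27.6%, 20.2% and 11.5% in the same 4 sets, 6.57% of all and 3.71% of those with no read. In the 25 genes of the storage and oil body lists, 23 windows had an RY element (92%) and 11 a G-box (44%). A match is a description of these letters in a window, and the genes were in part chosen as known seed storage genes.

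Read shares grow with transcript length, so orders and medians by share or normalised count are of reads. Transcript levels of genes are set side by side as reads per kilobase of the longest annotated transcript, as TPM over nuclear entries. On this scale OLEO1 stood at 45846 in WT 1 and 43977 in WT 2, more than any other entry in either library. OLEO2 followed with 18653 in WT 1 and 17390 in WT 2. The albumin gene SESA2 had 18267 and 15164, SESA5 18163 and 13032, and ATEPR1 14625 and 18252. AT3G01570, a further oleosin, had 15811 and 14040, and CRU2 16113 and 13694. The order among those after OLEO1 changed from library to library. The noncoding entry AT1G15405 had 552 and 27916. ATTI7, a small knottin-type trypsin inhibitor, entered the 10 highest on this scale with 14140 and 13043. The last of the 10 was SESA4, with 14593 and 11928. Of these 10 entries 7 were storage or oil body genes.

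Of the 30 highest entries 29 were protein-coding, and those outside the storage and oil body lists had varied functions. AT1G62225, with no function in the annotation, had normalised counts of 23384 in WT 1 and 17759 in WT 2. The peroxidase PRXR1 had 19343 and 18664, and AT1G19900, a glyoxal oxidase-related protein, 17929 and 15085. THI1, which makes the thiazole part of thiamine, had 13840 and 13564, a difference within counting error. AT1G14950, of the polyketide cyclase and lipid transport superfamily, had 11617 and 10582, the seed gene ATS3 10450 and 10487, and AT1G04560, an AWPM-19-like membrane protein, 10060 and 8888. AT1G04660, a glycine-rich protein, had 7917 and 8121, the lipid transfer protein LTP2 7837 and 8073, and the cupin AT3G04170 8395 and 6569. Among these genes the libraries differed most, as a ratio, in AT1G62225.

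Among the storage protein lists, 2S albumins held 2.61% of nuclear reads in WT 1 and 2.07% in WT 2, cruciferins 2.52% and 2.27%, and the vicilin-like proteins 2.06% and 2.09%. The 13 storage genes together held 7.19% in WT 1 and 6.43% in WT 2 (6.81% ± 0.534, SD, n = 2). The table assigns nearly all albumin reads to 3 of 5 genes. SESA5 had normalised counts of 35453 in WT 1 and 25421 in WT 2, SESA2 31575 and 26193, and SESA4 23610 and 19285. All 3 were higher in WT 1, by 1.37, 1.19 and 1.21 times in share. SESA1 had 3 reads in WT 1 and none in WT 2, and SESA3 was at 0 in both. Nearly all cruciferin reads were assigned to CRU2, with 61878 and 52552, and AT1G03890, also called CRD, with 25774 and 25225. CRA1 had 23.2 and 47.6 over 3 entries, and CRU3 1 read in WT 1 and none in WT 2 over 2 entries. All 4 vicilin-like genes were present: AT2G28490 had 25458 and 24606, AT4G36700 21549 and 22464, PAP85 21253 and 20607, and AT2G18540 3553 and 4058.

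Each of CRA1, CRU3, SESA1 and the oleosin gene OLEO4 appears in the table as several entries. Of 17 listed genes with several entries, markers left out, 11 had a summed mean below 50, and 3 of these had no read. Of 152 listed genes with 1 entry, 20 were below 50, and 5 of these had no read, SESA3 among them. Over all protein-coding genes only the share with no read was taken, 22.73% of those with several entries and 25.75% of those with 1 entry. The share below 50 was not taken, so the counts of listed genes below 50 have no counterpart. CRU2, CLO2, BCCP2, GAMMA-VPE and ABI3 were split too and had sums over 100. HSD1 and HSD2, steroleosin genes that are near-identical copies, were both at 0, and values of such copies are uncertain. SESA3 has 1 entry and shares no exonic bases with another gene, so neither layout applies to it. Sums over lists hold what the table assigns to its entries and may be incomplete. Whether the seeds lacked these transcripts was not tested.

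Oil body proteins had the highest summed share of any list, 5.72% of nuclear reads in WT 1 and 5.45% in WT 2 (5.58% ± 0.189, SD, n = 2). The storage protein lists together held more, 7.19% in WT 1 and 6.43% in WT 2. Storage and oil body proteins made 12.9% and 11.9% over 25 genes. Oleosins shield the oil body surface and keep the bodies apart. OLEO1 had normalised counts of 97899 in WT 1 and 93842 in WT 2, OLEO2 40577 and 37803, AT3G01570 (OLEO5 in the lists) 30267 and 26857, and OLEO3 6849 and 7583. OLEO4 had 2 reads in WT 1 and none in WT 2. The caleosin ATS1 (CLO1), a calcium-binding peroxygenase of the oil body, had 12241 and 11543, and its relative CLO2 1008 and 885. OBAP1a (AT1G05510), an oil body-associated protein, had 7996 and 6424. SEIPIN1, a protein of oil body formation, was at 115 and 72.8.

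Enzymes of fatty acid synthesis, which runs in plastids, lay at an intermediate level. Of 26 genes 23 had a mean normalised count of 100 or more (88.5%), against 19.6% of all 33038 nuclear genes and 24.2% of protein-coding ones, and the list's median was 783, against 5.67 and 19.98. Their summed share was 0.638% in WT 1 and 0.700% in WT 2. Acyl carrier protein ACP1 had 1985 and 2058, and on the per-length scale it was the highest of the list at 1170 and 1215. CAC2, the biotin carboxylase of acetyl-CoA carboxylase, had 1919 and 2072, CAC3, its carboxyltransferase alpha subunit, 1670 and 1806, and the condensing enzyme KASI 1503 and 1677. The alpha subunit of plastid pyruvate dehydrogenase, which supplies acetyl-CoA, had 1886 and 2061. SSI2, a stearoyl desaturase, had no read in any of its 3 entries.

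Triacylglycerol assembly and acyl modification held 0.865% in WT 1 and 0.846% in WT 2 over 16 genes, of which 15 reached 100, with a median of 459. Most of it came from the desaturases. FAD2, which makes linoleic acid, had normalised counts of 13340 in WT 1 and 12848 in WT 2, and FAD3, which makes alpha-linolenic acid, 6897 and 6494. FAE1, the elongase for the very-long-chain fatty acids of Brassicaceae seeds, had 3295 and 3117. The acyltransferases that finish triacylglycerol were lower per length than FAD2, at 2891 and 2786: DGAT1 had 93.7 and 100.3, and DGAT3 548 and 426. PDAT1 was the one gene of the list below 100, with normalised counts of 39.0 and 47.6.

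Carbon for these reserves arrives as sucrose. SUS2, a sucrose synthase of maturing seeds, had 6107 in WT 1 and 5696 in WT 2, and per length it stood at 863 and 805, against 111 and 94.0 for SUS3. Among the sugar exporters SWEET15 had 4214 and 4240, SWEET11 2330 and 2195, and SWEET12 306 and 294. Plastid pyruvate kinase had 3613 and 3688 for its beta subunit PKP-BETA1 and 2290 and 2237 for PKP-ALPHA. The 15 genes of the list held 0.680% and 0.682%. For the vacuole, the tonoplast aquaporin ALPHA-TIP (TIP3;1) had 7744 and 7183, the processing protease BETA-VPE 3583 and 3486, the sorting receptor VSR1 2433 and 2428, and the chaperone BIP1 2740 and 3071.9. All 10 genes of this list reached 100, with a median of 2396 and a summed share of 0.775% and 0.782%.

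Late embryogenesis abundant proteins, which protect drying cells, ranged widely within their list. Their sum was 0.433% in WT 1 and 0.395% in WT 2 over 21 genes, with 12 genes at 100 or more and 7 under 10. The list has 5 genes with several entries, and 4 of these had a summed mean under 50. AT3G15670 (LEA76) had 5229 and 4606, ECP63 2582 and 2349, AT3G17520 2097 and 1932, and EM1 1352 and 1137. EM6, the other early methionine-labelled protein of the list, had 26 reads in WT 1 and 2 in WT 2, RAB28 5 and 1, and RAB18 none in either of its 2 entries.

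Regulators of seed maturation had a small summed share: 17 of 18 genes found held 0.178% in WT 1 and 0.179% in WT 2. Of the genes found 12 reached 100 (70.6%), against 24.2% of protein-coding genes. Their median was 339, against 19.98. EEL, a bZIP factor, had 1597 and 1400, and bZIP67 (DPBF2) 768 and 891. WRI1, which switches on glycolytic and fatty acid synthesis genes, had 590 and 653, DOG1, which sets dormancy, 589 and 490, and FUS3 455 and 532. ABI3 had 383 and 353, and L1L, a CCAAT-box factor, 343 and 336. LEC1 was at 12.2 and 11.2, LEC2 had 1 read in each library, and MYB115 none. A search by transcription factor terms in the annotation text also finds other proteins and can miss factors. Among the entries found EEL had the highest mean share, in place 208 of all entries. In WT 1 alone AT3G10040 stood higher, in place 170 against 195 for EEL. By mean share GTB1, an elongation factor, came next with 1306 and 1288, followed by AT3G10040 with 1768 and 588. The NAC factors ATNAC2, also NARS1, had 922 and 790 and ANAC080 963 and 734. The others of the 10 highest were bZIP67, the chromatin factor KTF1 with 740 and 818, the CCAAT-box subunit HAP5B with 697 and 860, the MADS-box gene AGL67 with 822 and 655, and AT4G32620 with 680 and 770. Of the exonic bases of HAP5B 99.7% lie under another gene, so its value is uncertain.

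Nuclear photosynthesis genes had reads too. Of 20 such genes 15 reached 100, with a median of 716 and a sum of 0.425% in WT 1 and 0.498% in WT 2. RBCS1A, a small subunit of Rubisco, had 4800 and 5727, PSBO1 of the oxygen-evolving complex 1217 and 1319, and the antenna protein LHCB5 901 and 1120. LHCB6 and LHCB1.3 were at 0 (LHCB1.3 is split over 2 entries), and RBCS1B, RBCS2B and RBCS3B, which are near-identical to each other, were at 3.66 to 37.8. Genes of germination and reserve breakdown also had reads: ICL, isocitrate lyase of the glyoxylate cycle, had 2449 and 1985, PCK1 1347 and 1322, and MLS, malate synthase, 251 and 272. All 6 reached 100, with a sum of 0.180% and 0.162%. The 13 housekeeping genes held 0.626% and 0.650%. EF1A-4 (AT5G60390) had 7386 and 7810, though its near-identical copies EF1A-1, EF1A-2 and EF1A-3, at 618 to 865, make the split among them uncertain. UBQ10, a usual reference gene, had no read in WT 1 and 1 in WT 2 over 2 entries.

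**Figure D3:**
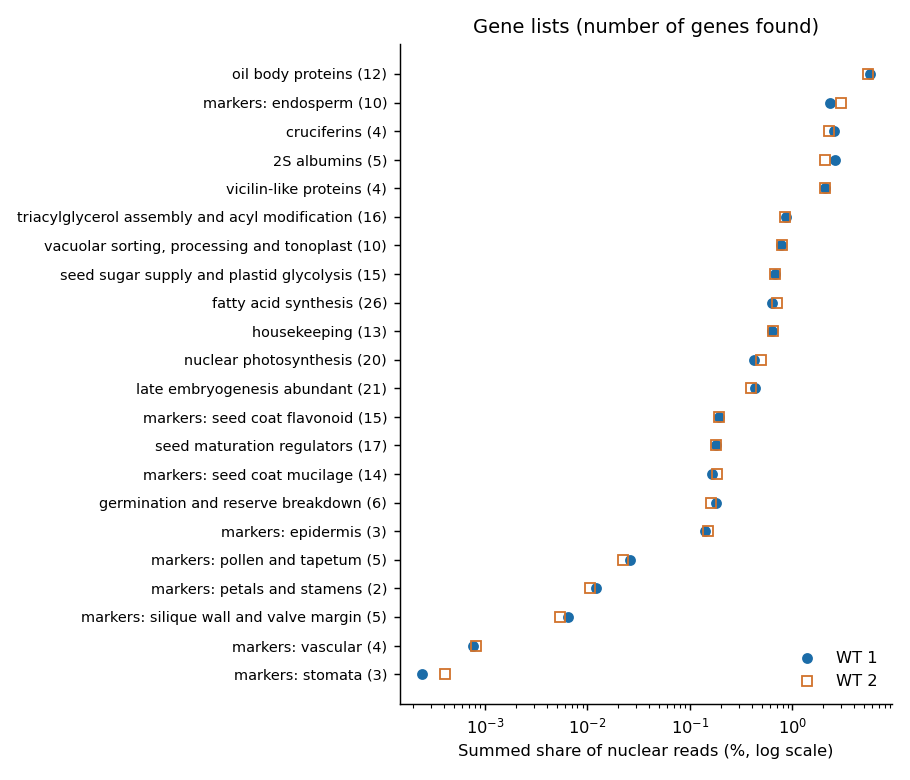
Summed share of nuclear reads (x axis, %, log scale) of each gene list with at least 1 read, with the number of genes found in brackets, as filled circles for WT 1 and open squares for WT 2. Lists run from oil body proteins at 5.72% and 5.45% down to stomatal markers at 0.000245% and 0.000409%, and the 2 root hair markers, both at 0, are not drawn.

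All markers of epidermis and seed coat mucilage had reads, and those of endosperm, seed coat flavonoids and other tissues were uneven. Of 14 mucilage genes 6 reached 100 (42.9%), of 15 flavonoid genes 4 (26.7%) and of 10 endosperm genes 1 (10%). Over all protein-coding genes 24.2% reached 100 and 25.7% had no read. All 3 epidermal genes reached 100: PDF1 had 3123 in WT 1 and 3299 in WT 2, PDF2 1123 and 1227, and ATML1 611 and 667. The seed coat lists held 0.357% and 0.374% over 29 genes. Mucilage genes were led by the subtilase SBT1.7, with 3441 and 3377, and the cellulose synthase CESA5, with 855 and 840. Flavonoid genes were uneven: the laccase TT10, which browns the coat, had 4170 and 3825 and chalcone synthase TT4 1323 and 1378, while BAN was at 80.5 and 72.8 and F3H, TT12 and TT1 were at 0. The endosperm list rested on ATEPR1 alone, since 6 of its 10 genes were under 10 and the highest of the rest was MEA, with 21.9 and 25.2. FIS2 and MINI3, which act early in endosperm growth, were at 0. Markers of other tissues were mostly at or near 0: root hair genes EXP7 and EXP18, the fruit wall genes FUL and IND, the petal gene PI and the xylem genes VND7 and XCP1 were at 0 in both. Those that reached 100 were SHP2, a MADS-box gene of the valve margin and also of ovules, with 135 and 126, AP3, a petal and stamen gene, with 427 and 367, and GRP17, an oleosin-like protein of the pollen coat, with 822 and 706. In the same lists PI and the tapetum gene A9 were at 0, and VGD1, a pollen tube gene, had 56.1 and 44.8. The part of tissue other than seed in the values of SHP2, AP3 and GRP17 was not tested.

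A total of 13013 nuclear entries (38.8%) had no read in either library. A further 658 were at 0 in WT 1 alone and 1864 in WT 2 alone, and 18037 had reads in both. WT 1 had 13671 entries at 0 and WT 2 had 14877. A draw from WT 1 down to the nuclear reads of WT 2 is expected to leave 15035 ± 27.2 entries at 0 (SD of the draw), against the 14877 observed in WT 2. Protein-coding entries were at 0 in both libraries in 27.0% of cases (7290 of 27035), pseudogenes and transposon genes in 90.3%, tRNA genes in 95.3% and miRNA precursors in 82.5%. Summed per gene, 6813 of 26515 protein-coding genes (25.7%) had no read. The median transcript of protein-coding entries at 0 was 1080.5 bases, against 1724 bases for those above 0.

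Zeros differed with how a gene is laid out in the table. Entries of protein-coding genes with several entries were at 0 in 58.5% of cases (587 of 1004), and entries that are the gene's only one in 25.75% (6703 of 26031). Of the 484 genes with several entries, 22.73% were at 0 in all of them, against 25.75% of genes with 1. Where 50% or more of a gene's exonic bases lie under another gene's exons, 51.0% of 549 entries were at 0, against 29.3% of 19896 entries that share none and 10.5% of 5586 that share less than 50%. The sources used here do not say how reads in such overlaps were counted. Of entries seen in 1 library only, the most reads fell on FPS1, a farnesyl diphosphate synthase, with 18 in WT 1 and none in WT 2. By share the highest was the snoRNA AT4G39363, with none in WT 1 and 15 in WT 2, a normalised count of 42.0.

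**Figure D4:**
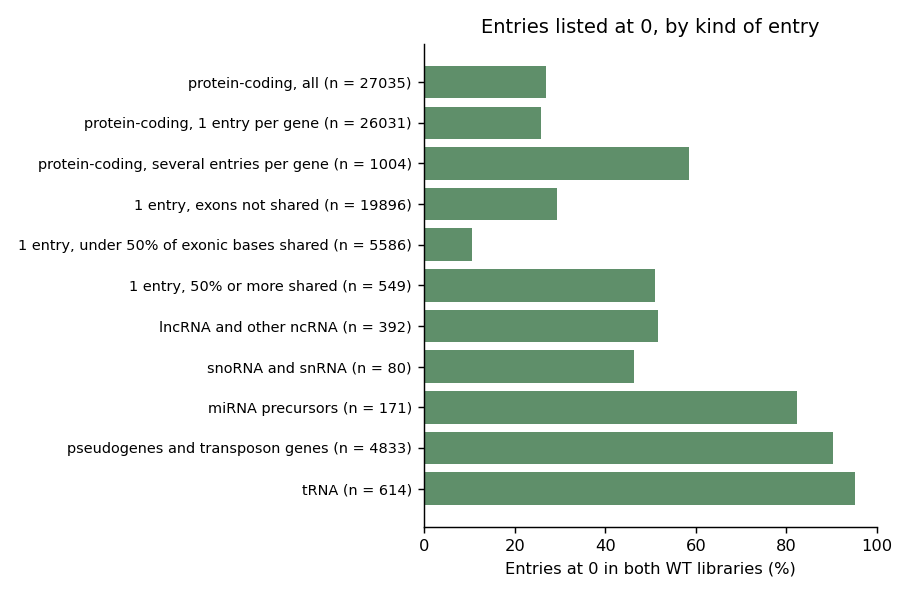
Percentage of nuclear entries with no read in both WT libraries (x axis, from 0) for kinds of entry, with the number of entries in brackets. Pseudogenes and tRNA genes stand above 90%, and protein-coding entries rise from 25.75% for genes with 1 entry to 58.5% for genes with several.

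The 2 libraries ranked entries alike. Over the 15290 entries with a mean normalised count of 10 or more, Pearson's r of log2(normalised count + 1) was 0.958 and Spearman's rho 0.965, both across entries, which are not independent replicates. The median ratio between libraries, larger over smaller, was 1.18. A share differed 2-fold or more in 19.2% of entries with a mean of 10 to 30, in 3.27% from 30 to 100, in 0.378% of 6086 from 100 to 1000 and in 1.302% of the 384 at 1000 or more (5 entries), which makes 0.433% of the 6470 at 100 or more. The median ratio was 1.41 in the lowest of these classes and 1.085 in the highest. Over all 15290 entries 835 differed so (5.46%), 412 (2.69%) higher in WT 1 and 423 (2.77%) higher in WT 2. An exact two-sided binomial test per entry on recovered reads, with Benjamini-Hochberg adjustment, called 239 of 15759 entries (1.52%) at 0.05, 119 (0.755%) higher in WT 1 and 120 (0.761%) higher in WT 2. This test compares these 2 libraries and covers counting error only. Of the 30 highest entries 17 were called, 13 higher in WT 1 and 4 higher in WT 2. The median ratio over the 30, larger over smaller, was 1.06.

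**Figure D5:**
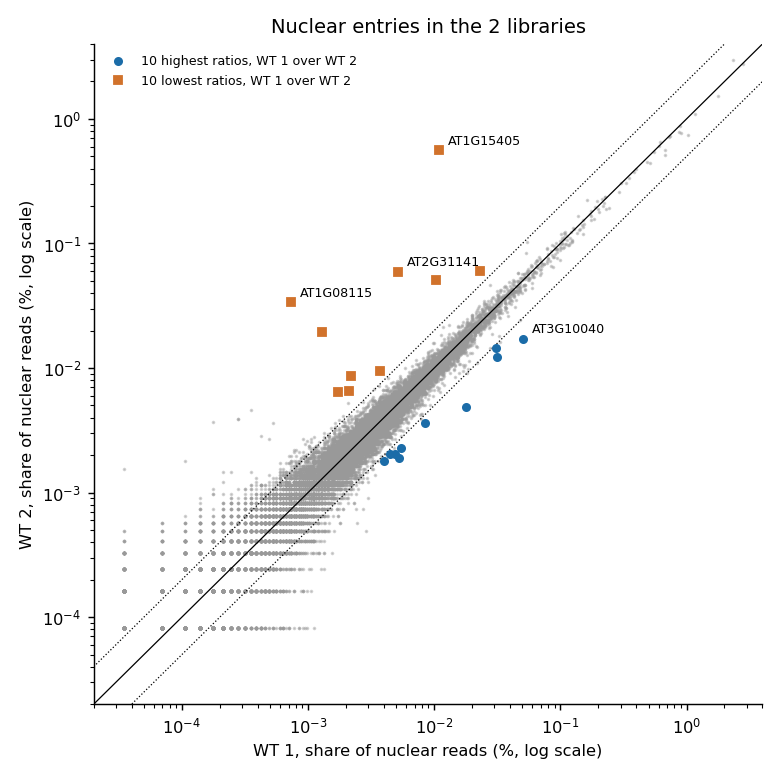
Share of nuclear reads (%) of each entry with reads in both libraries (x axis WT 1, y axis WT 2, both log scales), with the line of equality and dotted lines at 2-fold. Most entries with many reads lie near the diagonal and those with few reads scatter more widely; marked, among entries with a mean normalised count of 100 or more, are the 10 highest ratios of WT 1 over WT 2 (blue circles, up to 3.68) and the 10 lowest (orange squares), where AT1G15405 was 51.3 times higher in WT 2.

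Some lists leaned to 1 library. All 3 albumin genes tested were called higher in WT 1, against 0.755% of all entries called in that direction. Of 9 oil body genes 4 were called higher in WT 1 and 1 higher in WT 2, and of 4 vicilin-like genes 2 were called higher in WT 2. Entries with many reads are called more easily, and of the 30 highest entries 13 were called higher in WT 1. Of 17 photosynthesis genes 4 were called higher in WT 2, against 0.761% of all entries. ATEPR1 was 1.27 times higher in WT 2 (interval 1.25 to 1.28). No member of the albumin, oil body and photosynthesis lists with a mean of 10 or more differed 2-fold.

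Larger differences were found elsewhere. Among entries with a mean of 100 or more, the 10 highest ratios of WT 1 over WT 2 were all protein-coding. So were 6422 of the 6472 nuclear genes at this level, with the entries of a gene summed. AT3G27220, a kelch repeat protein, had 618 in WT 1 and 165 in WT 2, a ratio of 3.68 (interval 2.81 to 4.91; adjusted p = 7.76e-26, exact binomial). AT3G10040, a trihelix transcription factor known from low-oxygen responses, had 1768 and 588, a ratio of 2.96 (2.56 to 3.44). The neighbouring wound-responsive family genes AT4G10265 and AT4G10270 had 183 and 64.4, and 1098 and 420. PDC1, pyruvate decarboxylase, had 191 and 78.4, and ADH1, alcohol dehydrogenase, 1070 and 493; these are the enzymes of ethanol fermentation. AHG1, a phosphatase that restrains abscisic acid responses in seeds, had 171 and 70.0. The list was completed by AT5G65207 with 293 and 123, SRO5, of whose exonic bases 45.5% lie under another gene, with 140 and 61.6, and ATTPS8 with 155 and 70.0.

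The 10 lowest ratios included RNAs that do not code for protein. AT1G15405 (chr1:5297875-5298166, - strand), annotated as other RNA, had 379 in WT 1 and 19157 in WT 2, 51.3 times higher in WT 2 (interval 45.8 to 57.7). It was in place 1562 of WT 1 and 14 of WT 2, and is among the 30 highest through WT 2 alone. The small nuclear RNA AT1G08115 had 25.6 and 1162, 46.1 times higher in WT 2 (interval 29.8 to 75.3). The spliceosomal RNA U2.7 had 76.8 and 297, the signal recognition particle RNA AT7SL-1 798 and 2053, and the rRNA entry AT2G01010 360 and 1759. By biotype the AT7SL-1 locus is annotated as protein-coding, and its reads are counted so in the group sums below. The others are annotated as protein-coding: AT2G31141, with 36.6% of its exonic bases under another gene, had 180 and 2033, AT2G35750 45.1 and 669, AT5G61310, a cytochrome c oxidase subunit, 59.7 and 221, AT3G56820 73.1 and 224, and GATL5, a glycosyltransferase of seed mucilage, 129 and 325. As groups, snoRNA and snRNA entries held 0.00592% of nuclear reads in WT 1 and 0.0543% in WT 2, and long and other noncoding RNAs 0.165% and 0.711%. The rRNA entries kept in the nuclear total, AT2G01010 among them, held 0.0146% and 0.0597%. The share of AT3G41768 in all reads, 40.8% in WT 1 and 60.7% in WT 2, moved in the same direction. Its part in these differences was not tested. AT2G01010 is annotated as rRNA of no stated kind. It is 1808 bases long and lies before the 5.8S entry AT2G01020, so its reads may also be from 18S. Protein-coding entries held 99.5% of nuclear reads in WT 1 and 98.8% in WT 2.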

How the data were processed

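The authors deposited, for each library and merged locus, a signal, which is a normalised count: the reads of an entry over the size factor of the library, as the values show. The submitters' processing notes name DESeq2 1.12.4, HTSeq 0.6.0, StringTie 1.0.3 and STAR 2.4.0j with the build TAIR10, and give no roles or parameters. Libraries were made, per the labels, with a TruSeq RNA kit of version 2, which as usually run enriches polyadenylated RNA and keeps no strand information. Every value divided by its library's smallest step (1.219 in WT 1, 2.800 in WT 2) was whole within 0.001, so reads were recovered.

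Nuclear entries were those with a gene of chromosomes 1 to 5, plus 81 assembled transcripts. Of these 75 were matched to a TAIR gene by symbol and 6 were not. Of 33572 entries 33128 matched RefSeq TAIR10.1, used for positions, biotypes, lengths and windows. Shares have exact (Clopper-Pearson) 95% intervals. Zeros were set beside the expectation from drawing the reads of WT 1 down to those of WT 2, and a floor of 3 reads. Intervals, floors and the binomial tests (entries with 10 or more reads) cover counting error only, and the tests compare 2 libraries. The genes named were the 30 highest by mean share, the 10 highest per kilobase, the 5 highest and the zeros of each list, the 10 highest and lowest library ratios at a mean of 100 or more, and the 10 highest found by transcription factor terms in the annotation text; other list members, AT3G41768, FPS1, AT4G39363 and entries just outside were named after their values were seen. The 23 lists (233 genes), the markers and the members were chosen with earlier results of these data known. No mutant library was compared, and some upstream sequences are not reported here. Python 3.11.15, pandas 2.3.3, numpy 2.4.6 and SciPy 1.17.1 were used.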

Additional observations from a re-analysis of the deposited data

Results flagged for a closer look

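Entries that the main description leaves out also carried reads. Assembled entries with no TAIR gene came to 0.0616% of the number of nuclear reads in WT 1 and 0.208% in WT 2. The 2 highest were CUFF.2782.1, with normalised counts of 197 in WT 1 and 3204 in WT 2 and CUFF.2781.1, with 73.1 and 1593. They were chosen after their values were seen, and what they are is not given in the files.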

How the results depend on the processing

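Shares depended most on the unit. The 10 highest entries held 13.1% of nuclear reads, 15.4% with organelle reads in both the ranking and the total, and 18.9% per kilobase of transcript; the 100 highest held 29.1%, 33.1% and 38.3%. The number of entries for 50% of reads was 762.5 on average and 360.5 per kilobase. With either library alone these ran from 13.0% to 13.3%, from 28.8% to 29.4% and from 753 to 772. Adding the assembled entries, or leaving out entries of the AT2G07 stretch and annotated rRNA, moved none of these 3. Entries at 0 in both libraries numbered 13013 of all kinds, 7290 among protein-coding entries and 6813 among protein-coding genes with their entries summed (an alternative chosen after seeing the data), and 13671 to 14877 in a single library. Pearson's r across entries was 0.970 with a pseudocount of 10 and 0.979 without a filter. Entries that differed 2-fold numbered 28 at a mean of 100 or more and 3920 without a filter. List sums moved beyond the spread of the libraries for 19 of 23 lists per kilobase (0.527 to 1.95 times the main value) and for 15 with organelle reads in the total. No paired analysis was possible because the libraries form 1 group and no groups are compared.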

Other observations

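Families read from the annotation text added to the lists. Entries annotated with the words ribosomal protein, among them the elongation factor LOS1, held 2.83% of nuclear reads in WT 1 and 3.19% in WT 2 over 336 entries, 27 of them at 0, with a median normalised count of 136. Aspartyl proteases held 0.545% in both, led by APA1 with normalised counts of 7589 and 6852.

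Chromosome 1 held 26.5% of nuclear reads in both libraries, against 25.4% of entries, and 30 of the 100 highest entries. Chromosome 4 held 17.9% in WT 1 and 17.5% in WT 2, against 15.4% of entries. Chromosome 2, where ATEPR1 lies, held 15.9% in WT 1 and 16.8% in WT 2, against 16.6% of entries. Of the 100 highest entries 4 pairs were direct neighbours: CRU2 with AT1G03890, AT1G54860 with AT1G54870, SAMDC with AT3G02480, and ATS3 with YAP169. In place 31 and just below the 30 highest stood APA1, with a mean share of 0.2090% against 0.2091% for OLEO3 in place 30.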
